A study of Mus musculus with 40 samples.

Results

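The complement components and receptors described here are 8 genes, *C1qa*, *C1qb*, *C1qc*, *C4b*, *C3*, *C3ar1*, *C5ar1* and *Serping1*, taken by their symbols from a count table of 43346 genes in mouse cortex. The table holds 40 libraries of poly-A RNA from pulverized cortex, 1 per mouse, in 4 groups of 10 mice with 5 females and 5 males each. Within each of 2 cohorts, WT mice with both normal *Trem2* alleles were compared with Hom mice, which carry the H157Y missense change of the microglial receptor gene *Trem2* on both alleles at its own locus. Mice of the amyloid cohort also carried the 5xFAD transgenes, which give amyloid deposits and are driven by the neuronal *Thy1* promoter, and were examined at 8.5 months. Mice of the non-amyloid cohort carried no transgene and were examined at 6 months. The knock-in was made by CRISPR editing of zygotes, and its mice descend from 1 founder unless the study says otherwise. Because transgenes and age change together between cohorts, their shares in a cohort difference cannot be told apart.

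Complement is a cascade of proteins that tag particles and synapses for uptake and draw in immune cells. C1q, built from the chains encoded by *C1qa*, *C1qb* and *C1qc*, starts the classical pathway; C4 and then C3 are cleaved and deposited on the target, and the small fragments released act through receptors such as those encoded by *C3ar1* and *C5ar1*. *Serping1* encodes the C1 inhibitor, a serpin that blocks the proteases bound to C1q. In brain, C1q is made mainly by microglia, C4 largely by astrocytes and other glia, and C1q and C3 are known for their part in the loss of synapses in amyloid models.

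The 8 genes lie on the minus strand of 5 chromosomes (mm10, GENCODE vM21). The C1q chain genes are neighbours on chromosome 4, with *C1qb* at chr4:136880129-136886187, *C1qc* at chr4:136889804-136893065 and *C1qa* at chr4:136895917-136898803. *C4b* (chr17:34728380-34743882) and *C3* (chr17:57203970-57228136) share chromosome 17 with *Trem2*, at 13.6 and 8.88 Mb from it. *C3ar1* is at chr6:122847138-122856161, *C5ar1* at chr7:16246743-16259540 and *Serping1* at chr2:84765387-84775444. No exon of a member overlaps an exon on the opposite strand.

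To show what lies just upstream of genes that differed between cohorts, the 250 bases before the start of 4 of them are given from RefSeq (GRCm38.p6, minus strand, 5′ to 3′): *C1qb* at chr4:136886201-136886450, *C3* at chr17:57228137-57228386, *C3ar1* at chr6:122856158-122856407 and *C5ar1* at chr7:16259339-16259588. Capitals mark matches to the motifs that were searched on both strands. The RefSeq start of *C5ar1* lies inside its GENCODE span, so most of its sequence falls within that gene, 28 bases of it in untranslated exon. All of its marked matches lie within that span.
C1qb: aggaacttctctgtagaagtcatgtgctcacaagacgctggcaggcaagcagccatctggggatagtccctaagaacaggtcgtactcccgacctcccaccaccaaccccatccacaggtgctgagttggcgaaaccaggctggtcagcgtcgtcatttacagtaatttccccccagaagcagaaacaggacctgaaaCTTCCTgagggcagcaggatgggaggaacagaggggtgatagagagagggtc
C3: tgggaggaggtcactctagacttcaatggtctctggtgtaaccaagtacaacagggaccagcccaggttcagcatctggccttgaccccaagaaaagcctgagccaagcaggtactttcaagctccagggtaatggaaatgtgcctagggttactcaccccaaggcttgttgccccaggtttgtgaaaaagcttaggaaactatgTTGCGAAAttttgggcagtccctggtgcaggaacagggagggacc
C3ar1: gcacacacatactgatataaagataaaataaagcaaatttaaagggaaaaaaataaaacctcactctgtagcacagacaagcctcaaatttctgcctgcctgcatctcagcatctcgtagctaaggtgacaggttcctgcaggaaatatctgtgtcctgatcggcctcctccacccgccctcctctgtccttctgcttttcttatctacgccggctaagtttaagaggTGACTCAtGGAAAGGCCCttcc
C5ar1: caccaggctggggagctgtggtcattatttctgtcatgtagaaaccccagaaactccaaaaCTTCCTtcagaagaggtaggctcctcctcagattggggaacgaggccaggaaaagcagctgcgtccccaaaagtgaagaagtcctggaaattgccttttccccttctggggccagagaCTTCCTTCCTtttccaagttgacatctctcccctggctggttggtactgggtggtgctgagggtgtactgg
The ETS motif AGGAAG, which the macrophage factor PU.1 can bind, matched once in the *C1qb* sequence and 3 times in that of *C5ar1*, where 2 matches overlap. It also matched in the *C1qc* sequence, and 29.5% of 32851 promoters of this length hold it. The *C1qc* sequence is not printed, and 151 of its bases lie in untranslated exon of that gene. The C/EBP motif TTGCNNAA matched in *C3* (9.56% of promoters), and the AP-1 motif TGANTCA (6.75%) and an NF-kB motif (GGG and TTTCC spaced by 2 bases, 1.41%) matched side by side in *C3ar1*. The interferon factor motif, GAAA repeated after 2 bases and held by 2.98% of promoters, had no match in the 5 member promoters searched. Promoters of *C1qa*, *C4b* and *Serping1* were not analysed here. A match describes letters only.

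Library totals ran from 41646271 to 105903846 assigned counts, with a median of 77193387. No library lacked a count of any member, and the lowest counts were 14 for *C3* and 16 for *C5ar1*. Replicate 19, an amyloid Hom female, had the lowest total and placed 0.617% of its counts on 528 antisense genes, against 0.0143 to 0.0190% in the other 39 libraries. The study's methods left out an unnamed amyloid Hom female on quality grounds, and whether it is replicate 19 is not given in the sources used here. All 10 amyloid Hom libraries were kept. Values without replicate 19 are given for some results only, and all other values include it. Replicate 3, also an amyloid Hom female, had 3.04 CPM (counts scaled to the library total) of the Y-linked *Ddx3y*, against at most 0.222 in the other 19 females and at least 67.9 in males. *Thy1*, whose promoter drives the transgenes, had medians of 1876 and 1535 CPM in amyloid WT and Hom mice and of 641.6 and 641.9 CPM in non-amyloid mice. *Trem2* itself had a median of 55.5 CPM in amyloid WT mice (30.2 to 111), 34.3 in amyloid Hom mice (17.3 to 49.1) and about 10.3 in non-amyloid mice. Markers of microglia, astrocytes, neurons and the other cell types checked were all detected.

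The comparison between cohorts asked how the complement genes differ between 5xFAD and non-transgenic cortex. In both genotypes the C1q chains, *C4b*, *C3* and both receptors were higher in the amyloid cohort, and *C4b* had the largest fold of the 8. A gene was called when edgeR's quasi-likelihood test gave a Benjamini-Hochberg adjusted p under 0.05 over 21253 genes and its log2 fold change exceeded 0.25 in size. By this rule 7 of the 8 members were called higher in amyloid WT than in non-amyloid WT mice, against 6.62% of all genes tested, and 7 of 8 in Hom mice, against 5.71%. None was called lower, against 1.33% of genes in WT and 0.856% in Hom mice. The median log2 fold change of the 8 was 2.02 in WT and 1.1 in Hom mice, with medians over all genes of 0.0023 and 0.0274. In bulk cortex, fewer cells of a type and less RNA per cell cannot be told apart, nor can more of either.

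*C1qa* ran from 14.7 to 36 CPM in non-amyloid WT mice (median 22.4) and from 53.0 to 183 CPM in amyloid WT mice (median 78.5). In Hom mice it ran from 13.6 to 29 CPM (median 24.1) in the non-amyloid cohort and from 35 to 63.5 CPM (median 48.8) in the amyloid cohort. Every amyloid library was thus above every non-amyloid library of its genotype. *C1qa* was 4.14-fold higher by cohort in WT mice (log2 2.05, SE 0.196, adjusted p = 7.49e-11, edgeR) and 2.20-fold higher in Hom mice (log2 1.14, SE 0.192, adjusted p = 5.49e-05). *C1qb* went from a median of 30.3 CPM (16.4 to 46.7) to 94.4 (61.5 to 230.0) in WT and from 27.5 (22.3 to 38.6) to 51.4 (42.4 to 90.1) in Hom mice. *C1qc* went from 17.3 CPM (9.03 to 26) to 53.4 (33.9 to 119) in WT and from 17.8 (11.3 to 22.8) to 32.3 (26.9 to 50.9) in Hom mice. The log2 fold changes of these partner chains, 1.99 and 1.94 in WT and 1.07 and 1.06 in Hom mice, lay close to those of *C1qa*.

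*C4b*, which encodes the C4 precursor, ran from 17.8 to 23.4 CPM in non-amyloid WT mice (median 20.1) and from 81.0 to 342 CPM in amyloid WT mice (median 170.5). In Hom mice the ranges were 13.3 to 30.7 CPM (median 18.3) and 52.9 to 154 CPM (median 96.9). The cohorts did not overlap in either genotype, and the rise was 9.05-fold in WT mice (log2 3.18, SE 0.223, adjusted p = 1.74e-14) and 4.70-fold in Hom mice (log2 2.23, SE 0.215, adjusted p = 4.24e-10). *C3*, the precursor on which all complement routes converge, was low in non-amyloid mice, at 0.220 to 0.936 CPM in WT (median 0.759) and 0.255 to 0.715 CPM in Hom mice (median 0.536). It reached 0.703 to 8.23 CPM in amyloid WT (median 2.13) and 1.11 to 4.44 CPM in amyloid Hom mice (median 2.15). *C3* rose 4.53-fold in WT (log2 2.18, SE 0.330, adjusted p = 2.90e-06) and 4.32-fold in Hom mice (log2 2.11, SE 0.332, adjusted p = 1.75e-05), with some overlap between cohorts in WT mice only.

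*C3ar1*, the receptor for the C3a fragment, had a median of 2.46 CPM in non-amyloid WT (1.62 to 4.35) and 13.9 CPM in amyloid WT mice (8.04 to 18.7). In Hom mice the medians were 2.39 CPM (2.16 to 3.13) and 8.31 CPM (6.46 to 15.2). It rose 5.44-fold in WT (log2 2.44, SE 0.176, adjusted p = 2.98e-14) and 3.91-fold in Hom mice (log2 1.97, SE 0.173, adjusted p = 3.87e-11), again with no overlap. *C5ar1*, the receptor for C5a, had medians of 0.299 CPM (0.225 to 0.968) and 1.67 CPM (0.633 to 2.52) in WT, and of 0.432 CPM (0.242 to 0.769) and 0.984 CPM (0.282 to 1.53) in Hom mice. Its ranges overlapped in both genotypes, and it rose 3.70-fold in WT (adjusted p = 1.00e-06) and 2.1-fold in Hom mice (adjusted p = 0.00816). *Serping1* stood apart from the other members, with medians of 8.12 and 8.62 CPM in WT and 6.73 and 7.73 CPM in Hom mice. Its log2 difference was 0.30 in each genotype (SE 0.128 and 0.129, adjusted p = 0.156 and 0.158) and was not called.

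**Figure D1:**
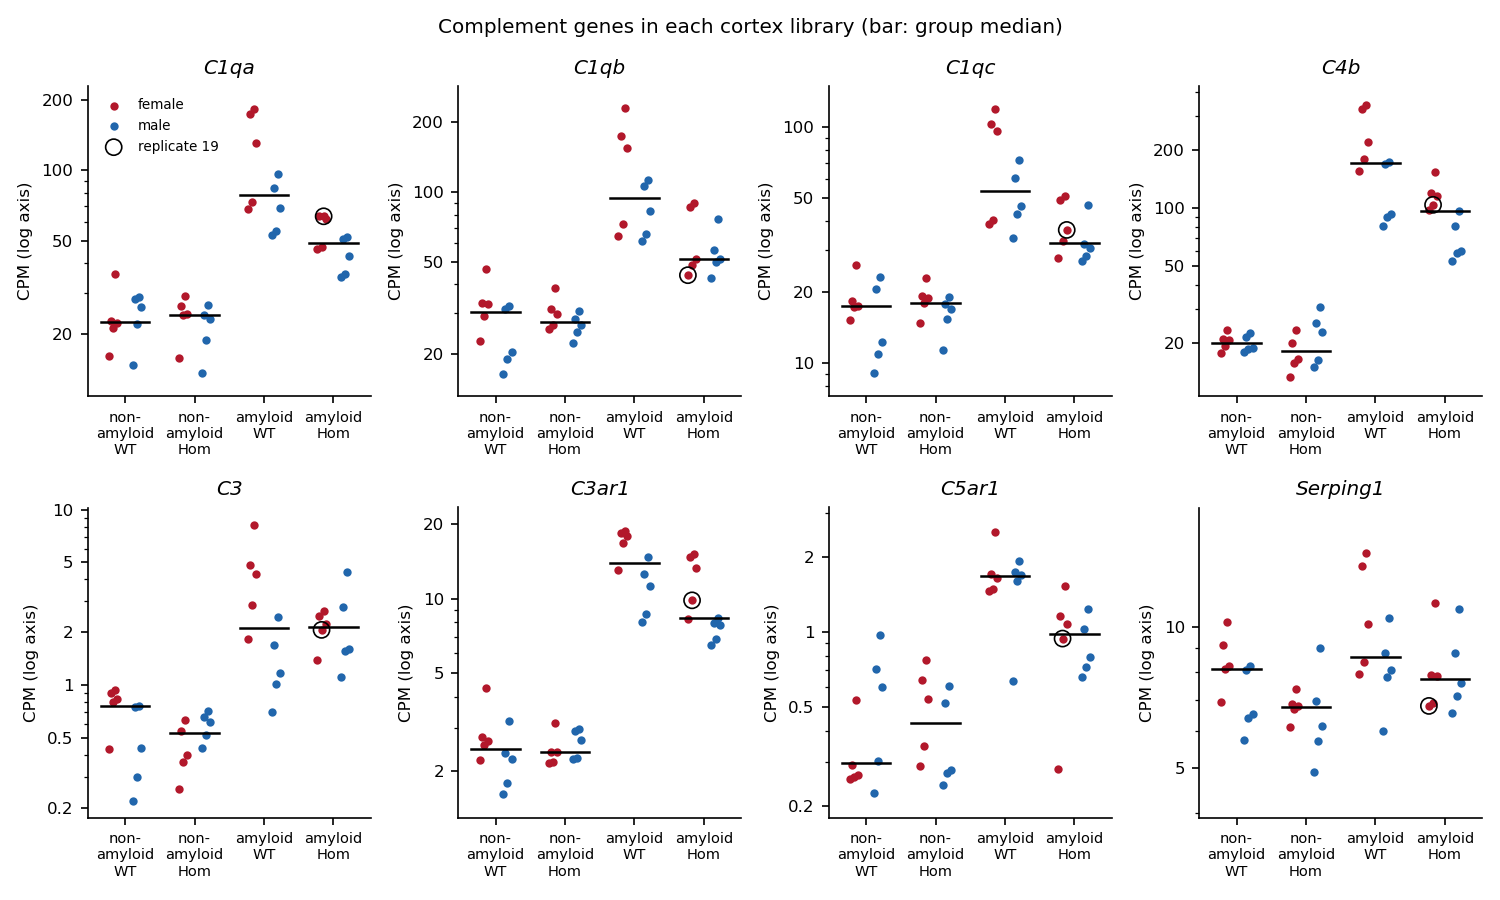
Level of each complement gene in each of the 40 libraries, in CPM on a log axis, by cohort and genotype; each point is 1 mouse and the line is the group median. *C4b* and *C3ar1* show a gap between cohorts in both genotypes, *Serping1* shows none.

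In all, 5 of 8 members had every amyloid WT library above every non-amyloid WT library (*C1qa*, *C1qb*, *C1qc*, *C4b* and *C3ar1*), against 1.95% of all genes tested. In Hom mice there were 6 of 8, with *C3* added, against 0.875% of genes. Only *C1qc*, *C4b* and *C3ar1* had every amyloid library of either genotype above all 20 non-amyloid libraries (0.56% of genes). The 14 member calls between cohorts were kept in each alternative run and in each fit that left out 1 library.

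**Figure D2:**
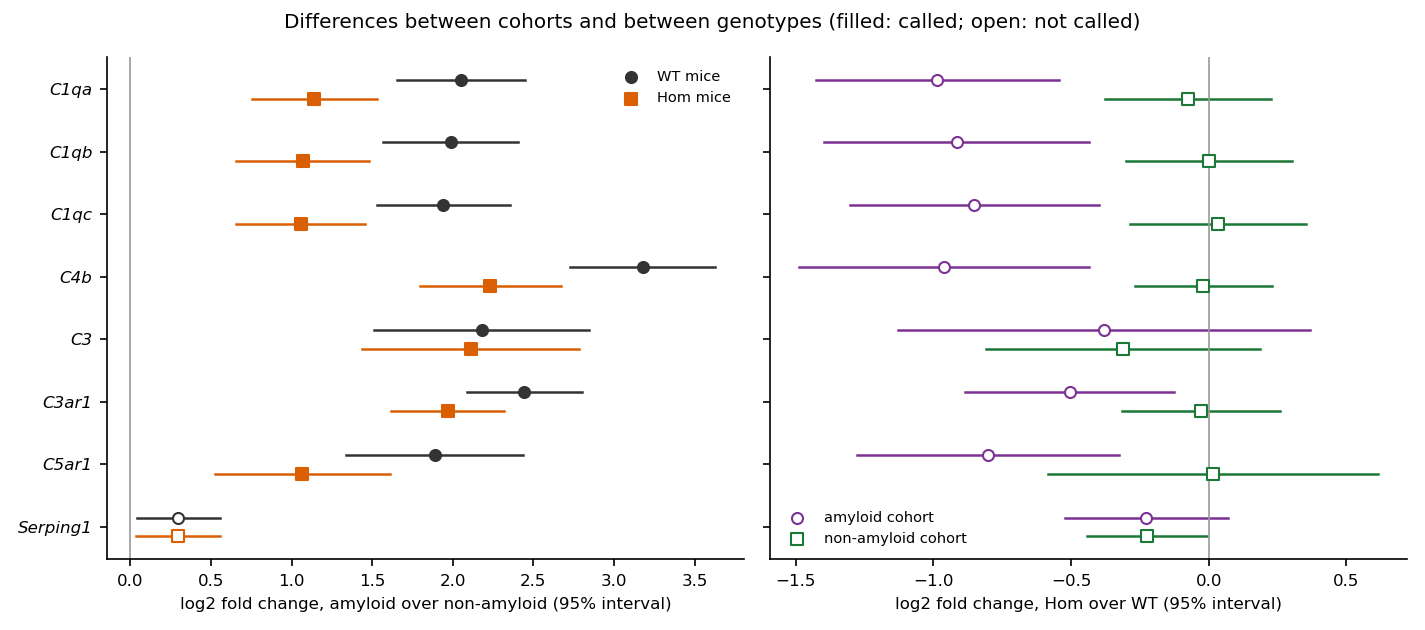
Log2 fold change of each complement gene, for the cohort comparisons in WT and Hom mice and for Hom against WT mice in each cohort. Bars give its confidence interval, which for *C1qa* between amyloid genotypes ran from -1.42 to -0.55. Cohort differences of 7 genes lie at or above 1.06, the amyloid genotype differences lie between -0.99 and -0.23, and the non-amyloid ones between -0.31 and 0.03.

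Per kilobase of gene length, the order of levels in non-amyloid WT mice was *C1qb* (26.1 ± 8.27 CPM per kb, SD, n = 10), *C1qa* (22.9 ± 6.02), *C1qc* (8.79 ± 2.78), *C4b* (3.55 ± 0.345), *Serping1* (3.34 ± 0.597), *C3ar1* (0.598 ± 0.18), *C5ar1* (0.172 ± 0.0976) and *C3* (0.124 ± 0.0513). *C1qb* and *C1qa*, *C4b* and *Serping1*, and *C5ar1* and *C3* were neighbours within their spread. In amyloid WT mice *C4b*, at 32.1 ± 16.1 CPM per kb, stood far above *Serping1* at 4.12 ± 1.13. On average the C1q chains kept similar shares of their summed level in every group: by coding transcript length, group means were 34.6 to 37.7% for *C1qa*, 40.8 to 42.2% for *C1qb* and 21.5 to 23.2% for *C1qc*. Single libraries spread more widely. The *C1qa* share ran from 28.1 to 48.3% in non-amyloid WT and from 31.4 to 46.4% in amyloid Hom mice. *C4b* has a near-identical copy, *C4a*, whose transcript matches it at 96.0% of aligned bases, so reads divided between them are uncertain. *C4a* took 8.60% of the counts of both genes in non-amyloid WT, 8.28% in non-amyloid Hom, 2.48% in amyloid WT and 3.45% in amyloid Hom mice.

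The second comparison asked whether *Trem2* H157Y changes the complement genes in amyloid mice. All 8 had a lower fitted level in Hom than in WT mice, as had 49.6% of all genes, with a median log2 difference of -0.83 against 0.0014 over all genes, but none was called by the model of the 20 amyloid libraries with genotype alone. In that model 0 of 8 passed, against 0.0753% of all genes (16 genes), and 6 of 8 had an unadjusted p under 0.05, all lower, against 5.77% of genes lower at that level. The largest differences were those of *C1qa* (log2 -0.99, SE 0.212, adjusted p = 0.0554), *C4b* (-0.96, SE 0.254, adjusted p = 0.0923), *C1qb* (-0.92, SE 0.232, adjusted p = 0.0821) and *C1qc* (-0.85, SE 0.218, adjusted p = 0.0830). *C5ar1* differed by -0.80 (SE 0.230, adjusted p = 0.121) and *C3ar1* by -0.51 (SE 0.184, adjusted p = 0.286). *C3* (-0.38, SE 0.362, adjusted p = 0.714) and *Serping1* (-0.23, SE 0.143, adjusted p = 0.617) had differences near the size of their errors.

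The members called differed between models, both with and without sex in the model. With sex as a covariate, 5 members fell in amyloid Hom mice: *C1qa* (log2 -0.94, adjusted p = 0.00810, edgeR), *C4b* (-0.92, adjusted p = 0.00902), *C3ar1* (-0.52, adjusted p = 0.0346), *C1qc* (-0.82, adjusted p = 0.0433) and *C1qb* (-0.88, adjusted p = 0.0456). Of all genes, 1.14% were called lower by that model. DESeq2 called 5 members and a fit of all 40 libraries 4, against 1.47% and 2.88% of genes. With sex in the model and without replicate 19, *C1qa* (-0.95, adjusted p = 0.0139) and *C4b* (-0.90, adjusted p = 0.0163) remained called, against 0.934% of genes called lower. Without sex in the model, leaving out 1 library called *C1qa* in 4 of 20 fits, those without Hom replicate 3 (adjusted p = 0.0460) or WT replicates 9 (0.0374), 13 (0.0201) or 22 (0.0365), and *C4b* in that without WT replicate 13 (0.0399). Shares of all genes called in those fits are not reported here. *Thy1* was also lower in amyloid Hom than in WT mice, by 0.31 on the log2 scale (adjusted p = 0.224), and its part in these differences was not tested.

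No member separated the amyloid genotypes by library: 0 of 8 had every WT library above every Hom library, against 0.00941% of genes. *C1qa* and *C1qb* each had 7 of 10 Hom libraries below every WT library, *C1qc* had 6, *C4b* and *C3ar1* had 4 and *C5ar1* had 1. The same 3 libraries, WT females 5, 12 and 32, held the highest values of all C1q chains and of *C4b*.

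In the non-amyloid cohort, the same genotype comparison gave small differences. None of 8 members was called, against 0.0329% of all genes (7 genes), and *Serping1* alone had an unadjusted p under 0.05 (log2 -0.23, SE 0.106, p = 0.0441, adjusted p = 0.962, edgeR), as did 4.49% of genes. *C1qa* differed by -0.07 (SE 0.147), *C4b* by -0.02 (SE 0.121) and *C3* by -0.31 (SE 0.240), and the other members by less than 0.04 in size. The test of the difference between cohorts in the genotype effect called 0 of 8 members and 0% of all genes, with 2189 genes (10.3%) at an unadjusted p under 0.05. Of the members, 5 of 8 were under that level, all with a lower value in amyloid Hom mice. DESeq2 called 38 genes, none of them a member. The interaction was -0.91 for *C1qa* (SE 0.268, adjusted p = 0.173), -0.92 for *C1qb* (SE 0.285, adjusted p = 0.201), -0.89 for *C1qc* (SE 0.279, adjusted p = 0.209) and -0.94 for *C4b* (SE 0.292, adjusted p = 0.201). No member passed the adjusted threshold for a difference between cohorts in the genotype effect.

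Within the amyloid cohort, females had more *C4b* and *C3ar1* than males. *C4b* was 155, 179, 220.0, 327 and 342 CPM in WT females and 81.0, 89.9, 93.1, 169 and 172 CPM in WT males. In Hom mice it was 97.1, 104, 115, 119 and 154 CPM in females and 52.9, 58.1, 60.1, 80.3 and 96.8 CPM in males. The sexes overlapped in WT mice (0.593% of genes had every WT female above every WT male), and in Hom mice every female was above every male, as for 0.508% of genes. Over both genotypes *C4b* was 1.85-fold higher in females (log2 0.89, SE 0.175, adjusted p = 0.0366) and *C3ar1* 1.59-fold higher (log2 0.67, SE 0.123, adjusted p = 0.0242), so 2 of 8 members were called against 0.184% of genes called higher in females. Both calls depended on single libraries. *C4b* was called in 8 of 20 leave-one-out fits, and lost without replicates 3, 5, 9, 10, 12, 13, 16, 22, 30, 32, 34 or 40, with adjusted p up to 0.0993. *C3ar1* was called in 11 of 20, and lost without replicates 3, 10, 12, 13, 16, 22, 27, 32 or 34, with adjusted p up to 0.0717. *C1qa* (log2 0.60, adjusted p = 0.154) was called by DESeq2 (adjusted p = 0.0359) but not by edgeR, and *C3* (0.78, adjusted p = 0.354) was not called. All 12 microglial markers were also higher in amyloid females, 9 of them at an unadjusted p under 0.05 and 2 called, with a median log2 difference of 0.35, and *Thy1* was higher by 0.27 (p = 0.00449, adjusted p = 0.231). Their part in the sex difference was not tested. By edgeR, no member was called between sexes in the non-amyloid cohort (0.118% of genes).

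The genotype values within each sex of the amyloid cohort were as follows. *C1qa* was 68.0, 72.8, 131, 173 and 183 CPM in WT females and 46.2, 47.0, 61.6, 63.4 and 63.5 CPM in Hom females. In males it was 53.0, 55.2, 68.6, 84.1 and 96.3 CPM in WT and 35, 35.9, 42.8, 50.6 and 51.8 CPM in Hom mice. *C1qa* was the only member whose genotypes did not overlap within either sex, a pattern of 0.136% of genes (29 genes), and *C4b* did not overlap within females only, where 1.05% of genes had every WT library above every Hom library.

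In females the log2 difference of Hom from WT was -1.16 for *C1qa* (SE 0.241, adjusted p = 0.0506) and -1.05 for *C4b* (SE 0.248, adjusted p = 0.0571). All 8 members had an unadjusted p under 0.05 and a lower level in Hom females, against 8.81% of genes, and 0 were called, against 0.179%. Without WT replicate 8 or WT replicate 26, *C1qa*, *C1qb*, *C1qc* and *C4b* were called in females, with adjusted p from 0.00945 to 0.0387. The share of all genes called in fits with 1 library left out is not reported here. *C1qa* was also called without Hom replicate 3, Hom replicate 34 or WT replicate 13, and *C4b* without Hom replicate 3, with adjusted p from 0.0392 to 0.0496. In males 0 of 8 were called, against 0.00471% of genes (1 gene), with *C1qa* at -0.73 (adjusted p = 0.832) and *C4b* at -0.80. At an unadjusted p under 0.05, 6 of 8 were lower in Hom males, against 2.15% of genes.

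*C3* had opposite signs in the sexes. It was 1.83, 2.88, 4.32, 4.83 and 8.23 CPM in WT females and 1.39, 2.07, 2.23, 2.47 and 2.65 CPM in Hom females. In males it was 0.703, 1.02, 1.17, 1.70 and 2.43 CPM in WT and 1.11, 1.57, 1.62, 2.80 and 4.44 CPM in Hom mice. The genotypes overlapped in both sexes, with a log2 difference of -1.03 in females (SE 0.397, adjusted p = 0.231) and 0.71 in males (p = 0.0901). The genotype by sex term of *C3* was -1.74 (SE 0.562, p = 0.00564, adjusted p = 0.817, edgeR) and was not called, as for all 8 members and 0% of genes, and 5.29% of genes had an unadjusted p under 0.05 for that term. Without Hom male replicate 25 it was -1.36 and the male difference was 0.33.

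**Figure D3:**
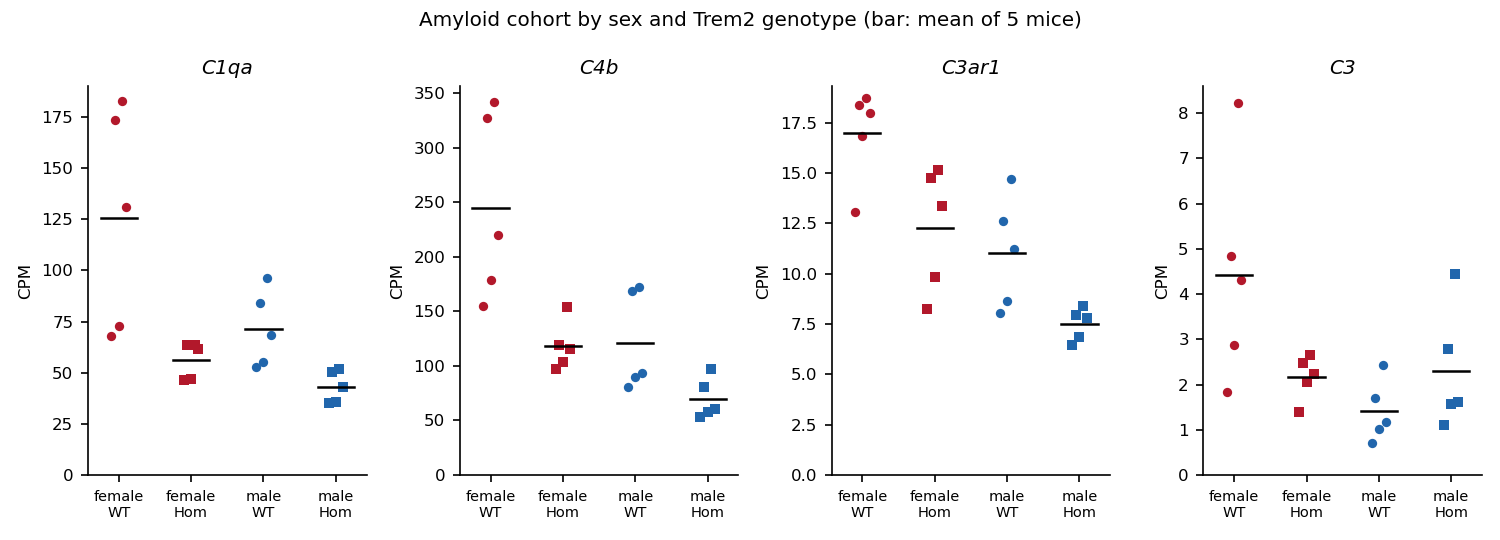
Level of *C1qa*, *C4b*, *C3ar1* and *C3* in the 20 amyloid libraries, in CPM on a linear axis, split by genotype and sex. Each point is 1 mouse and the line is the mean of 5. *C1qa* of Hom mice lies below that of WT mice within each sex, and *C3* is lower in Hom females but not in Hom males.

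The summed level of 12 microglial markers moved with these results. It had a mean of 444 CPM in non-amyloid WT (373 to 483), 436 in non-amyloid Hom (404 to 474), 1026 in amyloid WT (672 to 1413) and 732 in amyloid Hom mice (553 to 954). All 12 markers were called higher by cohort in WT and 9 of 12 in Hom mice. Between amyloid genotypes all 12 had a lower level in Hom mice and 10 had an unadjusted p under 0.05, with a median log2 difference of -0.48 and none called. Of 10 astrocyte markers, 3 were called higher by cohort in WT and 2 in Hom mice, with summed means of 5298, 5211, 6697 and 6314 CPM in the same order of groups. No marker of either list had a group median at 0.

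Each member was also measured against the mean log2 level of the microglial markers, which differed by 1.03 between cohorts in WT mice and by -0.46 between amyloid genotypes. By cohort in WT mice, the difference of *C1qa* went from 1.96 to 0.93, that of *C4b* from 3.02 to 1.99 and that of *C3ar1* from 2.43 to 1.4 on the log2 scale. On this scale all 10 amyloid libraries of *C4b* and *C3ar1* stayed above every non-amyloid library of their genotype. The share of all genes without overlap on this scale was not computed. The *Serping1* difference went from 0.27 to -0.76. Between amyloid genotypes, *C1qa* went from -0.88 to -0.41, *C4b* from -0.88 to -0.41, *C3ar1* from -0.51 to -0.05 and *C3* from -0.11 to 0.35. Against the mean of the 10 astrocyte markers, *C4b* was at 2.52 by cohort in WT mice and at -0.71 between amyloid genotypes. These are descriptions without a test, and the part of microglial or astrocyte number in them was not tested.

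**Figure D4:**
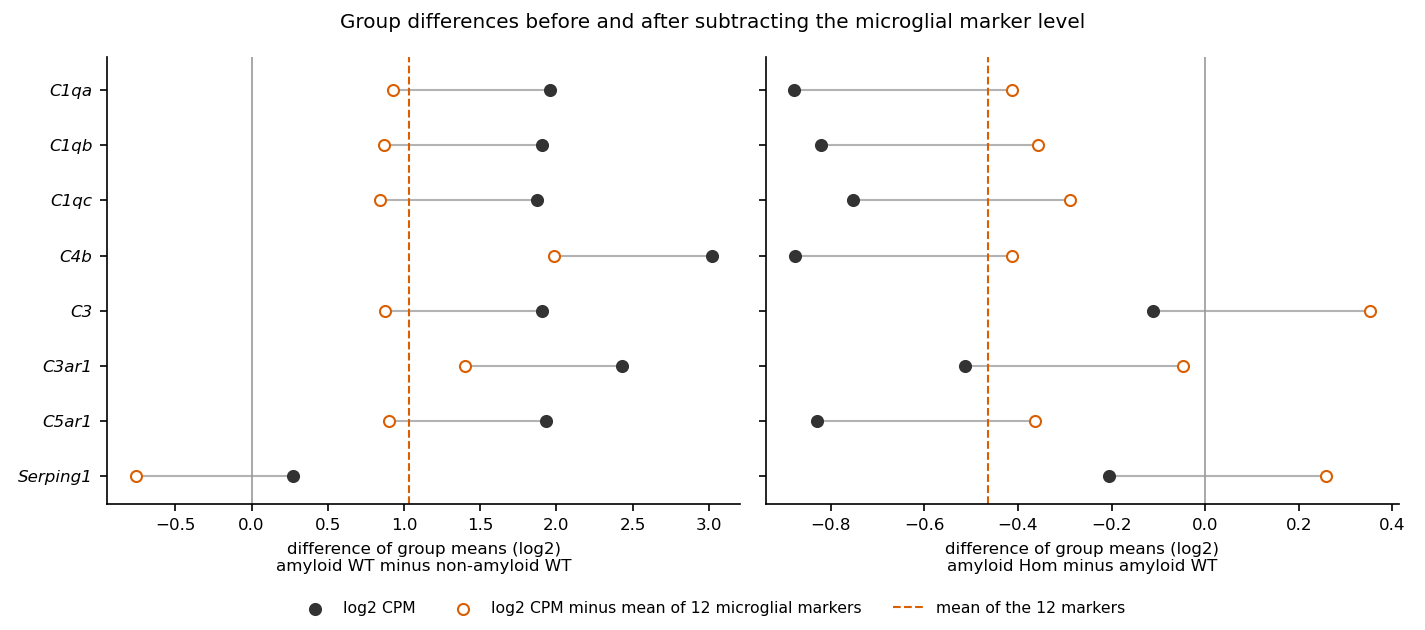
Log2 difference of each complement gene before and after subtraction of the mean of 12 microglial markers, for amyloid against non-amyloid WT mice and for amyloid Hom against WT mice. *C4b* keeps 1.99 of 3.02 in the cohort comparison, and *C3ar1* lies at -0.05 in the genotype comparison after subtraction.

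Across libraries, after the mean of each group and sex was subtracted from log2 CPM, the C1q chains varied together (Pearson r over 40 libraries of 0.92 for *C1qb* and *C1qc*, 0.86 for *C1qa* and *C1qc*, 0.72 for *C1qa* and *C1qb*). These points share the library and its depth. *C4b* varied with *C1qa*, *C1qb* and *C1qc* at r of 0.68, 0.64 and 0.62, with 0.87, 0.75 and 0.78 in the 20 amyloid libraries and 0.38, 0.38 and 0.30 in the 20 non-amyloid ones. Without the 2 libraries farthest from the median the pooled values were 0.62, 0.60 and 0.55. *C3* and *C4b* had r = 0.55, and *C1qa* and *C3ar1* had r = -0.06 (0.33 in amyloid and -0.48 in non-amyloid libraries), within a range of -0.17 to 0.92 and a median of 0.17 over 28 pairs.

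The genes whose residual pattern was most like that of each member were sought among 15198 genes with a mean of at least 1 CPM. Those nearest *C1qa* were *Itgb5* (r = 0.92), *Arpc1b* (0.92) and *Apoe* (0.89), and those nearest *C1qb* were *C1qc* (0.92), *Grn* (0.86) and *Csf1r* (0.82). *C1qc* was nearest *C1qb*, *Unc93b1* (0.88) and *C1qa*. *C4b* was nearest *Lgals3bp* (0.84), the astrocyte filament gene *Gfap* (0.76) and *Cd37* (0.75), and *C3ar1* was near *Tgfbr1* (0.78) and *Fcgr3* (0.74). *Serping1* had the smooth muscle and matrix genes *Fbln5* (0.78), *Bgn* (0.75) and *Tagln* (0.75) nearest. *C3* reached only 0.63 with *Frmd4b* and *C5ar1* only 0.59 with *9330104G04Rik*. By rank correlation 14 of the 24 pairings found were shared.

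**Figure D5:**
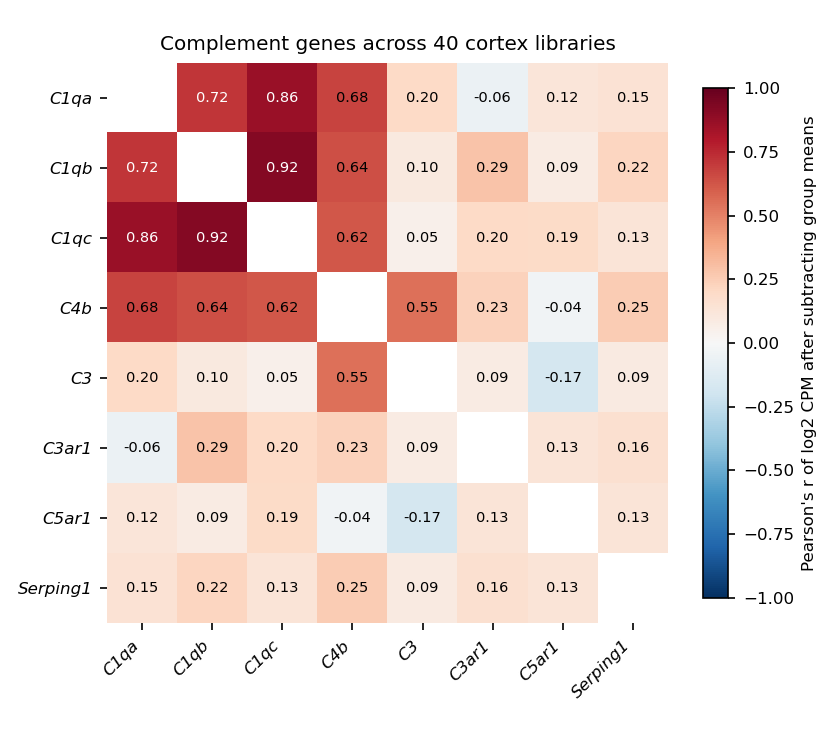
Pearson correlation between complement genes over 40 libraries, after the mean of each group and sex was subtracted from log2 CPM; the colour gives r. The C1q chains and *C4b* form a block with r from 0.62 to 0.92, and the pooled r of *C3ar1* with *C1qa* is -0.06.

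Of 51 other complement genes listed, 50 were in the table and 43 passed the filter on low counts. By cohort in WT mice 8 of 43 were called higher and 0 lower, against 6.62% and 1.33% of all genes, with a median log2 fold change of 0.10. Among these were the integrin subunit genes of complement receptors 3 and 4, *Itgax* (6.43, adjusted p = 3.46e-21), *Itgb2* (2.16, adjusted p = 4.32e-15) and *Itgam* (1.18, adjusted p = 5.00e-10), and *C5ar2* (1.73), *C4a* (1.14), *Cfb* (1.05) and *Clu* (0.44). Median *Itgax* was 0.358 CPM in non-amyloid WT, 0.333 in non-amyloid Hom, 27.3 in amyloid WT and 16 in amyloid Hom mice.

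In Hom mice 9 of 43 were called higher by cohort and 0 lower, against 5.71% and 0.856% of all genes, among them *Itgax* (5.28), *Cfi* (2.39), *C8a* (2.37), *Cfb* (1.78), *Cfhr2* (1.43), *Itgb2* (1.4), *C4a* (0.87) and *Itgam* (0.60). *C8a* and *Cfi* had at most 41 and 33 counts in any library. In amyloid Hom mice both were highest in replicate 25, at 0.520 and 0.304 CPM against group medians of 0.0428 and 0.0819 CPM. Their differences without replicate 25 are not reported here. Replicate 19 had 3.94 CPM of *Cfb*, against at most 0.98 in any other library. Without replicate 19, *Cfb* was at 1.09 (adjusted p = 0.00188), *Cfhr2* was not called and 8 remained called.

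Between amyloid genotypes 0 of the 43 were called, and 9 had an unadjusted p under 0.05, against 9.67% of all genes. *Itgax* (-1.19, adjusted p = 0.0525), *Itgb2* (-0.80, adjusted p = 0.0554) and *Itgam* (-0.58, adjusted p = 0.0974) were lower in Hom mice by value. With sex as a covariate these 3 were called lower, with adjusted p of 0.00574, 0.00535 and 0.0132, and they were also called with sex in the model and without replicate 19 (adjusted p = 0.0111, 0.00881 and 0.0254). The median log2 difference was -0.69 over the 6 receptor genes tested, -0.11 over initiation genes, 0.24 over terminal pathway genes and -0.01 over regulators.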

How the data were processed

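Cortical RNA of 40 mice was sequenced as poly-A libraries on 1 flow cell, and the authors deposited 1 merged table of raw gene counts. Per the labels, reads were aligned with STAR 2.5.2b to mm10 and counted with featureCounts 1.5.1; the study's methods name another aligner, and the counting strand is not given in the sources used here. Groups came from the cohort, genotype and sex labels. Ages came from the study's methods.

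The tests took the 21253 genes that reached 10 counts in 4 or more libraries. Counts were scaled by TMM over 40 libraries (factors 0.964 to 1.03) and fitted with edgeR 4.0.16 (quasi-likelihood test, R 4.3.3). Cohort comparisons and their interaction with genotype used 1 fit of all 40 libraries, genotype within a cohort the 20 libraries of that cohort, and sex 4 groups of 5 within a cohort. log2 CPM used a prior count of 2. The fit was tested on simulated data. Alternatives used DESeq2 1.42.0, limma 3.58.1, other scalings, filters, covariates and left-out libraries. Libraries of a group differed by more than counting error (lowest chi-square per degree of freedom 12.8), so each counted as 1 sample. Depth limits the precision of low genes such as *C3*. Named genes were the members, other complement genes called in a comparison described, and the 3 genes most like each member. Some of these are not reported here. The members and lists were chosen with earlier results of these data known.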

Additional observations from a re-analysis of the deposited data

Results flagged for a closer look

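*C3* in amyloid Hom mice had 1 library far from the others: replicate 25, a male, had 4.44 CPM and the next library 2.80 CPM, a gap of 0.492 of the group's range against Dixon's critical value of 0.466 for 10 samples. Of 32 groups examined 1 exceeded its critical value, and chance alone does so in about 1 of 20. Other complement genes were not examined by this rule. Replicate 25 was also the highest amyloid Hom library for the low genes *C8a* (0.520 CPM), *C4bp* (0.520), *C9* (0.507) and *C8b* (0.380). For others, such as *Cfb*, another library was highest. Whether these values share a cause was not tested. Without replicate 25 the log2 difference of *C3* between amyloid Hom and WT mice was -0.55 (adjusted p = 0.514, edgeR), and its difference by cohort in Hom mice was 1.94 (adjusted p = 6.41e-05).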

How the results depend on the processing

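The 14 member calls between cohorts held in each of the alternatives run. For Hom against WT in amyloid mice, 0 members were called by edgeR's quasi-likelihood test, 5 by DESeq2, 5 with sex as a covariate, 4 in 1 fit of all 40 libraries, 1 after filterByExpr, 0 by limma-voom and 0 to 2 when 1 library was left out. With sex as a covariate and without amyloid Hom replicate 19, an alternative chosen after seeing the data, 2 were called. The adjusted p of *C1qa* ran from 0.00178 to 0.126 over the alternatives, that of *C4b* from 0.00398 to 0.209 and that of *C3ar1* from 0.0346 to 0.525. In amyloid females 0 were called, but 4 by DESeq2, 4 in the fit of 40 libraries, 1 with upper-quartile scaling, 1 by library size alone and 0 to 4 with 1 library left out. Between sexes of the amyloid cohort 2 were called, 3 by DESeq2 (with *C1qa*), 1 without a filter on low counts and 0 to 2 with 1 library left out. Between amyloid genotypes, 1.47% of all genes were called by DESeq2 and 2.88% in the fit of 40 libraries, against 0.0753% by edgeR's quasi-likelihood test. Shares for limma-voom, filterByExpr, fits with only 1 library left out and the alternatives in females and between sexes are not reported here. The cause of these changes in calls was not tested. Fits of the 2 groups compared alone were run for the cohort comparisons but not for their interaction with genotype.

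Directions changed only for values near 0. Between non-amyloid genotypes *C1qb* was -0.005 with upper-quartile scaling and with library size alone, and *C3ar1* 0.004 by limma-voom. For the genotype by cohort term *C3* was 0.157 by limma-voom and 0.032 with sex as a covariate and without replicate 19, and *Serping1* was 0.004 by DESeq2, 0.029 by limma-voom, 0.004 with RLE factors, 0.013 with upper-quartile scaling, 0.001 without a filter, 0.003 with sex as a covariate and 0.039 with sex and without replicate 19. With 1 library left out, *C1qa* ran from -0.135 to 0.010, *C1qb* ran from -0.064 to 0.109, *C1qc* ran from -0.040 to 0.121, *C4b* ran from -0.108 to 0.033, *C3ar1* ran from -0.086 to 0.087, *C5ar1* ran from -0.104 to 0.228 between non-amyloid genotypes, *C3* ran from -0.237 to 0.265, *Serping1* ran from -0.064 to 0.082 for the genotype by cohort term, *Serping1* ran from -0.134 to 0.093 between amyloid male genotypes, *C3ar1* ran from -0.032 to 0.209, *C5ar1* ran from -0.252 to 0.195 for the genotype by sex term, *C1qa* ran from -0.023 to 0.137 between non-amyloid sexes. Low counts of *C3* and *C5ar1* limit their precision.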

Other observations

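The summed level of the choroid plexus markers ran from 9.09 to 681 CPM over the 40 libraries. Its mean was 34 CPM in non-amyloid WT, 84.8 in non-amyloid Hom, 93.6 in amyloid WT and 229 in amyloid Hom mice, and its medians were 16.2, 15.0, 22.2 and 28 CPM. All 6 markers had a higher fitted level in amyloid Hom than in amyloid WT mice (median log2 difference 0.82), 1 with an unadjusted p under 0.05 and 0 called by edgeR. The part of these markers in the genotype differences was not tested.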
